A study of Mus musculus with 4 samples.

Results

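The genes described here are Il10, Il10ra, Il10rb and Socs3, which are 4 of the 19059 genes counted in each library. They are the cytokine interleukin-10 (IL-10), the ligand-binding and the shared chain of its receptor, and a feedback gene that the receptor switches on. They were chosen by name as parts of 1 pathway, and on their summed UMI levels by class and library in an earlier reading of these same libraries, so every level below is given as a description and without a test. All 4 genes were detected. They were followed through regulatory T cells (Tregs), other T cells, natural killer (NK) cells, macrophages and dendritic cells, and through monocytes and neutrophils beside them.

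The cells were viable CD45+ leukocytes sorted from MC38 tumors, a mouse colon carcinoma line grown under the skin of humanized CTLA-4 mice (B-hCTLA-4, host strain C57BL/6). Every group carried the human CTLA-4 gene and the same tumor. There were 4 libraries, 1 for each treatment, and per the labels each was made from the pooled tumors of 11 mice taken on day 8, after 3 treatments. The isotype control group received hIgG1 at 10 mg/kg. The combination group received ipilimumab, a human IgG1 against CTLA-4, at 10 mg/kg and AT130-2 mIgG1-N297A, an antibody against mouse FcγRII whose Fc part is silenced, at 20 mg/kg. Each antibody was also given alone, but these 2 libraries are named for one antibody in their title and for the other in their treatment field. They are therefore called the library titled anti-human CTLA-4 and the library titled anti-mouse FcgRII, and which antibody each received was not settled. The article gives other numbers of tumors, doses and days than the labels. Mouse age was not given for this experiment in the sources used here. A density gradient for lymphocytes preceded the sort.

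IL-10 is made by Tregs, by other T cells and by macrophages, and is known for holding back inflammatory gene expression in macrophages and dendritic cells. It binds IL-10RA, which is found mainly on leukocytes, and the complex recruits IL-10RB, a chain that the receptors of IL-22 and of the lambda interferons also use. The kinases JAK1 and TYK2 on the chains then activate STAT3. STAT3 induces Socs3, whose protein blocks signaling by IL-6 and related cytokines but not by IL-10. Socs3 is also induced by IL-6, G-CSF, LIF, oncostatin M and other signals, so its level is no measure of IL-10 alone.

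On GRCm38, Il10 (ENSMUSG00000016529) lies on the plus strand of chr1:131019845-131024974. The receptor genes lie apart, with Il10ra (ENSMUSG00000032089) on the minus strand of chr9:45253837-45269149 and Il10rb (ENSMUSG00000022969) on the plus strand of chr16:91406164-91425834. Socs3 (ENSMUSG00000053113) is on the minus strand of chr11:117966079-117970047. The libraries count probes that hybridize to each gene, so levels of different genes could not be compared, and a level is compared only between classes and libraries for the same gene.

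Socs3 stood highest in the combination library in macrophages, monocytes and dendritic cells. Its promoter is shown because STAT3 is known to induce the gene, and whether STAT3 acted on it in these cells was not tested. Of the 4 genes, 1 was matched in the RefSeq promoter table. The stretch printed is 165 bases of the promoter on build GRCm38.p6, chr11:117969452-117969616, read 5′ to 3′ on the minus strand lying before the RefSeq start and overlapping no annotated exon, within an intron of a longer noncoding transcript of the gene. Capitals mark the match to TTCNNNGAA, the palindrome that STAT proteins bind, which reads the same on both strands.
Socs3: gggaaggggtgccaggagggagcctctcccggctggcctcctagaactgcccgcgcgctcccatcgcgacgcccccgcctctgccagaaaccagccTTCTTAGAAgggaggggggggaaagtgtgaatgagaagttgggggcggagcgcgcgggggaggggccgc
The motif occurred 1 time in this stretch, at chr11:117969512-117969520, 154 bases before the start of the RefSeq transcript. It was present in 2726 of 32851 promoters, or 8.30%, so a match is common and does not by itself mark a site in use. That share was counted over whole promoter windows, which for Socs3 held 300 bases, and not over stretches like the one printed.

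Filters left 26778 cells, between 5778 and 7739 per library, and the deposited barcodes held a median of 14836 to 19115 unique molecular identifiers (UMIs) per cell. No whole cell barcode was shared between libraries. The part of the barcode that marks the droplet was shared by 712 to 1148 cells for each pair of libraries. Levels are given as CPM, a gene's UMIs summed within a class for every 1,000,000 UMIs which that class held in total. Brackets hold 95% intervals, exact Poisson for levels, exact conditional binomial for ratios of levels and exact binomial for shares of cells, all of which cover counting error only. With 1 library for each treatment, differences between treatments and between libraries cannot be told apart, and no p-value was computed.

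Clusters were named from marker genes. All 11 macrophage markers were detected in macrophages, all 8 T cell markers in T cells and all 9 NK markers in NK cells, which include innate lymphoid cells type 1 (ILC1). In dendritic cells 9 of 12 markers were detected. The cluster called fibroblasts or tumor cells, used only as a background, was led by the collagen genes Col3a1 and Col6a2 and had 3 of its 9 markers, and an unnamed cluster led by Igha and Krt19 scored higher on that list. Many cells of the lymphocyte and neutrophil clusters also carried macrophage RNA. Those with 1% or more of their UMIs on the macrophage markers were set apart from their class, at 915 cells in isotype control, 287 and 464 in the anti-human CTLA-4 titled and the anti-mouse FcgRII titled library, and 690 in the combination. After that step the macrophage markers still summed to 1079.6 to 4984.9 CPM in Tregs and 946 to 3722 CPM in other T cells, against 27451.5 to 36202.1 CPM in macrophages. The 5 Treg markers were all detected in Tregs, and summed to 4505 CPM in isotype control and to 1718 CPM in the 9 Tregs of the combination. Values with the set-apart cells put back are given for several of the results below.

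Il10 was low or absent in most cells and was carried by few of them. Over all cells of a library its level was 7.72 CPM in isotype control, 4.06 and 4.36 in the anti-human CTLA-4 titled and the anti-mouse FcgRII titled library, and 2.63 CPM in the combination. The combination level was thus 0.341 times the isotype level [0.305-0.380], from 454 and 1194 UMIs. Of 7739 isotype control cells 283 had an Il10 UMI, and of 7217 combination cells 143.

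Tregs, taken as T cells with a Cd4 and a Foxp3 UMI and no Cd8a or Cd8b1 UMI, held the highest Il10 levels of the classes in the libraries where their UMIs were counted at all. The level was 103 CPM [80.0-130] in the 93 Tregs of isotype control, where 18 cells had a UMI. It was 32.7 CPM [15.7-60.2] in the 48 Tregs of the library titled anti-human CTLA-4 and 97.5 CPM [71.9-129] in the 45 Tregs of the library titled anti-mouse FcgRII. The first of these single antibody libraries was 0.319 times isotype control [0.146-0.621], and the second could not be told from it at 0.949 [0.643-1.39]. Both intervals treat UMIs as independent, while most UMIs of each of these libraries lay in a single Treg, so neither ratio is firm. A reading without the highest cell was not made for Il10 in Tregs. In the combination only 9 Tregs were left, with 0 Il10 UMIs, where 3 UMIs would have given 24.2 CPM. Set at that floor, the level would be 0.236 times that of isotype control. The floor treats UMIs as independent, while the 70 UMIs of isotype control Tregs lay in 18 cells. It is therefore no firm upper limit.

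The number of Tregs with Il10 was small in every library. In the library titled anti-human CTLA-4, 8 of the 10 UMIs came from 1 cell, and in the library titled anti-mouse FcgRII 26 of 48 came from 1 cell. When each Treg was brought to 2818 UMIs, the expected share of cells with Il10 was 16.3% in isotype control, 4.46% and 12.3% in the titled libraries in the same order, and 0 of 9 in the combination, which allows a share of up to 33.3%. By the share of cells, a difference between the combination and isotype control was therefore not detectable at this depth. Fibroblasts or tumor cells, which should lack the gene, gave 0.0177% at that depth, from 278 cells with a median of 86196 UMIs against 4911 in Tregs. Macrophage markers summed to 529 CPM in those cells and to 3157 CPM in Tregs over all libraries. Their share can therefore understate the RNA of other cells in Tregs, and this limit holds for each share from them given below. Put back among the Tregs, the cells with macrophage RNA brought the level to 54.7 CPM in isotype control, 27.9 and 49.6 in the titled libraries and 25.3 CPM over 21 combination cells. With them the combination was 0.461 times isotype control [0.244-0.798].

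Other T cells ranged more widely, and single cells set their level. Isotype control stood at 73.2 CPM [62.3-85.4], the library titled anti-human CTLA-4 at 8.30 CPM, the library titled anti-mouse FcgRII at 9.52 CPM and the combination at 2.45 CPM [1.37-4.05]. Of the 162 isotype UMIs, 141 came from 1 conventional CD4 T cell, and all 37 UMIs of the library titled anti-human CTLA-4 came from 1 CD8 T cell. The combination was 0.0335 times isotype control [0.0183-0.0569] over all cells, 0.154 times when the highest cell of each library was left out, and 0.0850 times with the cells of macrophage RNA put back. The combination was below isotype control in each of these readings, by a margin that depends on 1 cell.

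Conventional CD4 T cells with an Il10 UMI numbered 1 of 116 in isotype control, 0 of 189 and 3 of 39 in the titled libraries and 2 of 123 in the combination. Among CD8 T cells the count was 3 of 116, 1 of 320, 0 of 73 and 2 of 293. The rest of the other T cells had neither or both of Cd4 and Cd8 UMIs, or Cd8 and Foxp3 UMIs. This rest can include cells with a Foxp3 UMI, and in isotype control it held most of the other T cells with an Il10 UMI. NK cells were near 0, with 2 Il10 UMIs in 1308 cells over all libraries. Thinned to 2282 UMIs per cell, the expected share of other T cells with an Il10 UMI was 1.93% in isotype control, 0.181% and 2.03% in the titled libraries and 0.563% in the combination, against 0.0144% in fibroblasts or tumor cells.

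**Figure D1:**
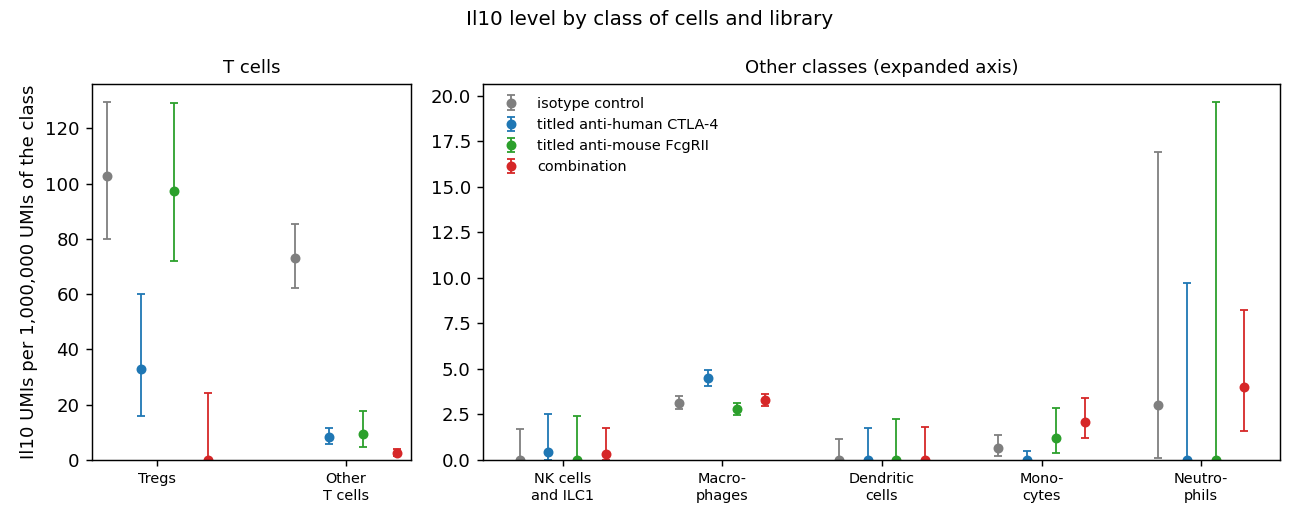
Il10 UMIs per 1,000,000 UMIs of the class (y axis, from 0, wider scale in the right panel) for 7 classes of cells and 4 libraries. Points are levels and bars 95% Poisson intervals, drawn for a count of 0 up to the level that 3 UMIs would give; Tregs stand at 103 CPM in isotype control and at 0 in the combination, while macrophages lie between 2.78 and 4.47 CPM in every library.

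Macrophages carried less Il10 than Tregs in 3 of the 4 libraries, but there were far more of them. Their level was 3.14 CPM [2.79-3.52] in isotype control, 4.47 CPM [4.02-4.95] in the library titled anti-human CTLA-4, 2.78 CPM [2.46-3.14] in the library titled anti-mouse FcgRII and 3.26 CPM [2.93-3.61] in the combination. The combination could not be told from isotype control, at 1.04 times [0.888-1.21]. It was below the library titled anti-human CTLA-4, at 0.729 times [0.629-0.845], which itself was 1.42 times isotype control [1.22-1.66].

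The UMIs behind these similar macrophage levels were spread differently over cells. An Il10 UMI was found in 131 of 4523 isotype control macrophages and in 102 of 4201 combination macrophages, yet 101 of the 366 combination UMIs lay in 1 cell, against at most 15 in any isotype macrophage. Without the highest cell of each library the ratio was 0.792, and without the 1% of cells with the most Il10 UMIs it was 0.582. Brought to 7988 UMIs per cell, 1.60% [1.24-2.05] of isotype control macrophages and 0.999% [0.718-1.38] of combination macrophages had an Il10 UMI, with 1.96% and 1.16% in the titled libraries and 0.0488% in fibroblasts or tumor cells. T cell markers in macrophages summed to 126 CPM in isotype control, 59.4 and 26.8 in the titled libraries and 133 CPM in the combination. In macrophages without a Cd3d, Cd3e or Cd3g UMI the Il10 level was 2.23 CPM in isotype control, 4.02 and 2.70 in the titled libraries and 2.24 CPM in the combination.

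Among the 12 macrophage clusters, Il10 was highest over all libraries in cluster 1, led by the protease gene Ctsk and the heat shock gene Hspa1a, at 8.37 CPM. It was lowest in cluster 4, led by Slc4a11 and Ifitm1, at 0.569 CPM. Cluster 0, led by Cbr2 and Folr2, genes of resident-like macrophages, held 1.26 CPM in isotype control against 8.16 CPM in the combination. That cluster held the combination cells with 101 and 44 Il10 UMIs, which together make up most of its 191 UMIs.

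Dendritic cells had no Il10 UMI in any library, at 0 of 615 cells, which allows a share of up to 0.488% for cells with a UMI and sets no limit on cells that express the gene. Monocytes had few, at 6 UMIs in isotype control, 0 and 5 in the titled libraries and 16 in the combination. Relative to isotype control the combination stood at 3.30 times in monocytes [1.23-10.3], but 14 of the 16 UMIs came from 1 cell, and without the highest cell of each library it stood at 0.624 times. In neutrophils 8 UMIs were counted over all libraries, 7 of them in the combination.

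The source of Il10 UMIs differed between libraries. Macrophages gave 24.8% of a library's Il10 UMIs in isotype control, 79.2% and 47.0% in the anti-human CTLA-4 titled and the anti-mouse FcgRII titled library, and 80.6% in the combination, while they made up 58.4%, 60.3%, 72.7% and 58.2% of the cells. Tregs gave 5.86%, 2.16%, 8.59% and 0% in the same order, and 34.3%, 5.19%, 36.0% and 2.86% with the cells of macrophage RNA put back. The cells of lymphocyte and neutrophil clusters with macrophage RNA gave 55.2% in isotype control and 10.6% in the combination. Those of them with a Foxp3 UMI numbered 329 in isotype control, 34 and 117 in the titled libraries and 27 in the combination. Their Il10 level was 25.2, 12.9, 40.7 and 10.9 CPM in the same order, which puts the combination at 0.433 times isotype control [0.254-0.692]. Whether such a profile is 1 cell or several in 1 droplet was not tested.

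**Figure D2:**
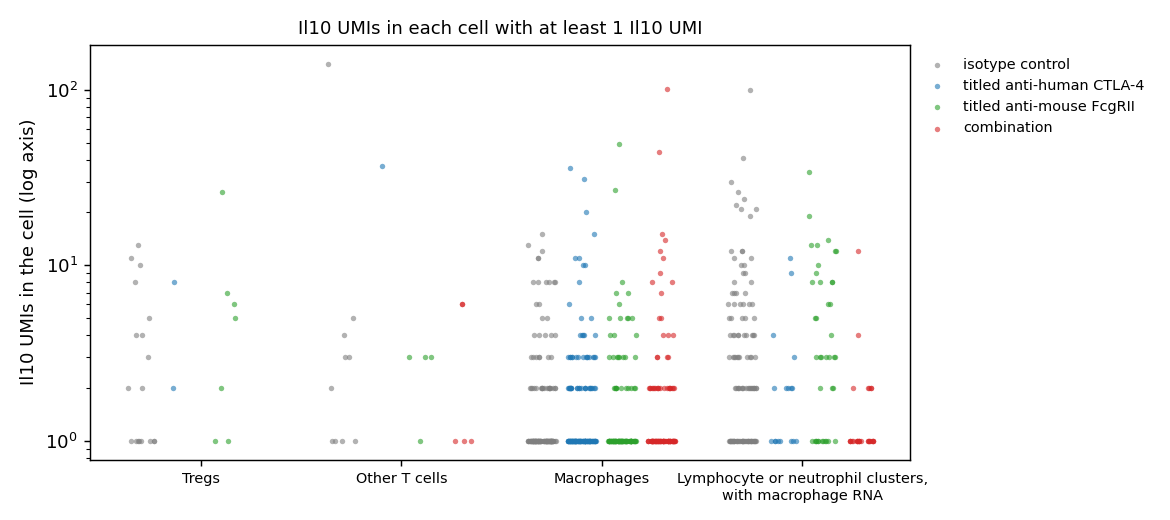
Il10 UMIs per cell (y axis, log scale) in every cell with at least 1 Il10 UMI, by class and library. Each point is 1 cell; no combination Treg is shown because none had a UMI, and single cells reach 141 UMIs in isotype control T cells and 101 UMIs in combination macrophages.

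The receptor chain that binds the ligand, Il10ra, was highest in monocytes and dendritic cells. Over the 4 libraries it ranged from 497 to 577 CPM in monocytes and from 443 to 548 CPM in dendritic cells, ranges that overlap. Both classes lay above each of the others in every library. Macrophages followed at 267 to 310 CPM, Tregs at 177 to 325, other T cells at 154 to 303, neutrophils at 176 to 306 and NK cells at 198 to 264 CPM, and these ranges overlap as well. Fibroblasts or tumor cells, which should lack the chain, held 3.63 to 11.3 CPM.

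In macrophages Il10ra was 310 CPM [307-314] in isotype control, 308 CPM in the library titled anti-human CTLA-4, 275 CPM in the library titled anti-mouse FcgRII and 267 CPM [264-270] in the combination. The combination was 0.861 times isotype control [0.848-0.876] and 0.971 times the library titled anti-mouse FcgRII. Over all 12625 genes compared in macrophages the median ratio was 0.924, a log2 shift of -0.11, so the Il10ra ratio is lower than that of the median gene by a small margin. Scaled by the median of ratios over genes it was 0.931. By cluster it was below isotype control in 11 of 12 clusters, in 9 of them beyond the counting interval, and ranged from a ratio of 0.503 in cluster 21, led by Hspa1a and Adm, to 1.03 in cluster 7, led by histone genes. The highest level, 485 CPM over all libraries, was in cluster 11, led by the interferon-induced genes Cmpk2 and Ifit3, and the lowest, 185 CPM, in cluster 1. With the clusters held at fixed shares the ratio was 0.855, close to the 0.861 found. The median gene of each cluster was not computed, so the cluster counts do not allow for a shift shared by most genes.

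In the other classes Il10ra differed from isotype control in both directions or not beyond the counting interval. Dendritic cells had 477, 548, 443 and 493 CPM in isotype control, the anti-human CTLA-4 titled library, the anti-mouse FcgRII titled library and the combination, and the combination ratio to isotype control was 1.03 [0.946-1.13]. The larger dendritic cluster, led by Cd209a, ranged from 475 to 586 CPM, and the one led by Ccl22 and Ccr7 from 208 to 353 CPM. NK cells had a ratio of 0.918 [0.810-1.04] and Tregs of 0.768 [0.484-1.17], the latter at 0.750 [0.622-0.897] with the cells of macrophage RNA put back. Other T cells had 214, 303, 154 and 248 CPM in the same order, a ratio of 1.16 [1.05-1.29] that became 0.929 [0.903-0.956] with the cells of macrophage RNA put back. In neutrophils the level went from 176 CPM in isotype control to 306 CPM with both antibodies, a ratio of 1.74 [1.33-2.33] from 105 and 457 cells. Of the 7 classes, neutrophils showed the highest Il10ra ratio. Their own markers summed to 57234 CPM in isotype control against 34893 CPM in the combination, and the macrophage markers in them to 1917 against 1608 CPM. The part of RNA from other classes in this ratio was not tested.

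The shared chain, Il10rb, had another order of classes. Neutrophils held 312 to 463 CPM and macrophages 294 to 342 CPM, ranges that overlap, and macrophages stood above every class but neutrophils. Tregs held 206 to 290 CPM, monocytes 247 to 271, NK cells 209 to 284, other T cells 175 to 234 and dendritic cells 165 to 212 CPM. These ranges overlap, except that monocytes lay above other T cells and dendritic cells. Dendritic cells were thus among the highest classes for Il10ra and among the lowest for Il10rb. Fibroblasts or tumor cells held 54.3 to 63.9 CPM, and as this chain is widely expressed they are no background for it.

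Macrophage Il10rb was lowest in the combination, at 294 CPM [291-297], against 331 CPM [327-334] in isotype control, 333 CPM in the library titled anti-human CTLA-4 and 342 CPM in the library titled anti-mouse FcgRII. The combination was 0.888 times isotype control [0.875-0.902], 0.882 times the first titled library and 0.860 times the second. It was below isotype control in 12 of 12 clusters, in 8 beyond the counting interval, with ratios from 0.828 in cluster 2, led by Dnase1l3 and Gbp2b, to 0.988 in cluster 11. Like Il10ra, the difference is small beside the median gene at 0.924, and scaled by the median of ratios it was 0.960. The cluster counts were taken against isotype control itself and not against the median gene of each cluster, which was not computed. Monocytes had a ratio of 1.09, dendritic cells of 0.907 [0.788-1.04] and Tregs of 1.21 [0.822-1.75]. With the cells of macrophage RNA put back, Il10rb in Tregs was at 0.795 [0.660-0.950] in place of 1.21. In NK cells it was 0.848 [0.751-0.958], and in neutrophils 1.48 [1.21-1.84]. Other T cells were at 1.13 [1.02-1.26], but at 0.893 with the cells of macrophage RNA put back.

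Both chains, Il10ra and Il10rb, are needed in 1 cell for a response. Brought to 1 depth within a class, 75.3% of isotype control macrophages had UMIs of both, with 75.6% and 74.3% in the titled libraries and 69.5% in the combination. Monocytes were at 55.3% to 58.2% and dendritic cells at 46.9% to 51.8%. In Tregs the share was 21.4% in isotype control, 19.2% and 29.5% in the titled libraries and 12.5% in the 9 combination cells, in NK cells 14.9% to 20.5% and in other T cells 8.97% to 12.5%. The classes were brought to different depths, so these shares are compared within a class and not between classes. At the macrophage depth 4.99% of fibroblasts or tumor cells had an Il10ra UMI.

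**Figure D3:**
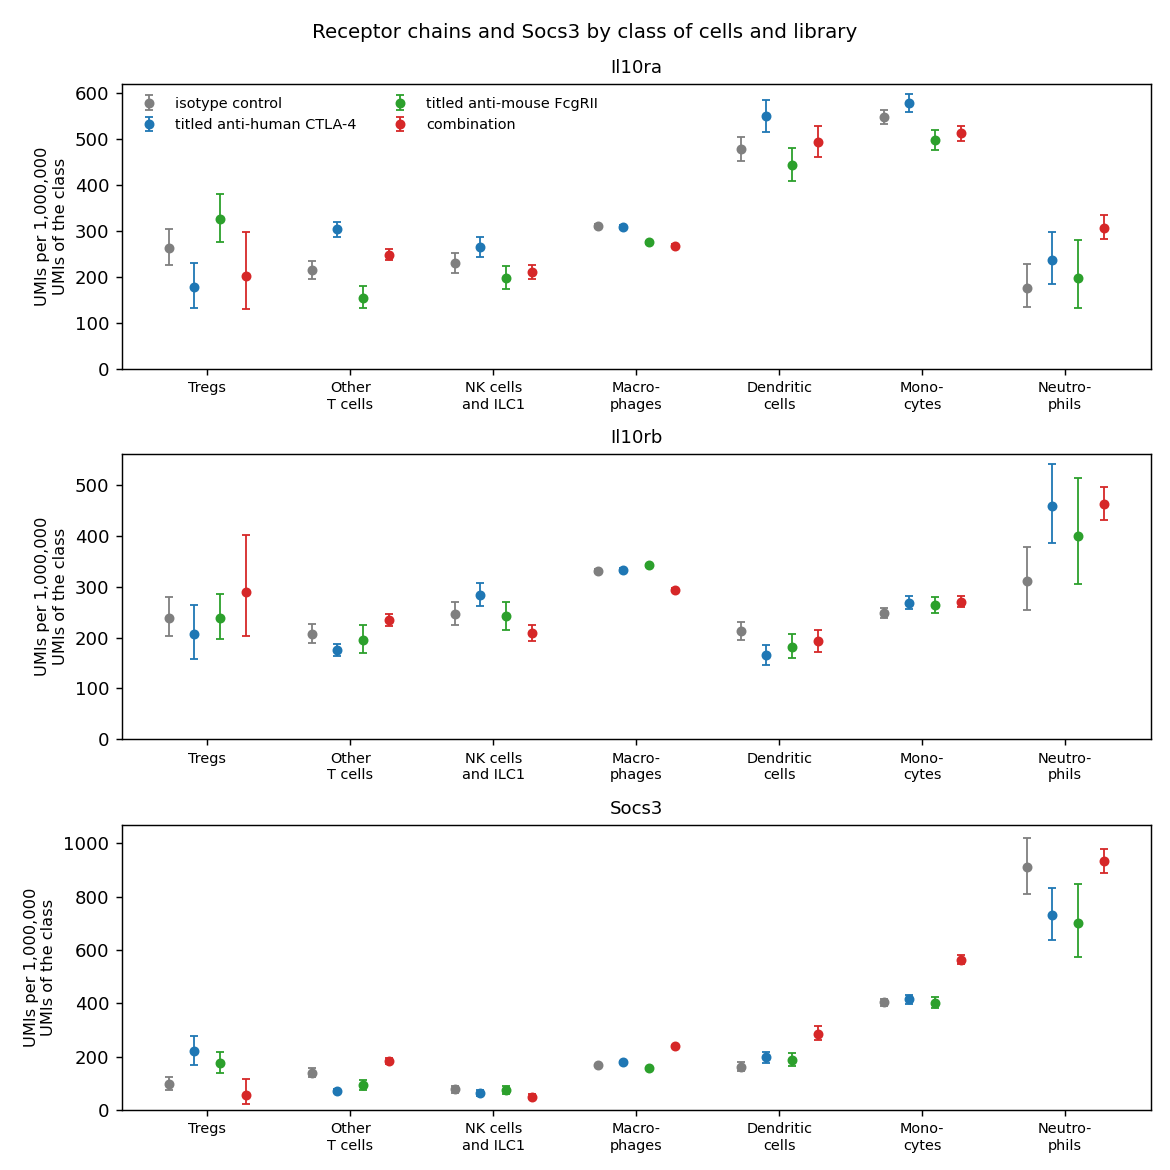
Il10ra, Il10rb and Socs3 UMIs per 1,000,000 UMIs of the class (y axes, from 0) in 7 classes and 4 libraries. Points are levels and bars 95% Poisson intervals; Il10ra is highest in monocytes and dendritic cells, and Socs3 in macrophages, monocytes and dendritic cells is highest in the combination, at 241, 562 and 286 CPM.

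Socs3, the feedback inhibitor, stood higher in the combination than in every other library in macrophages, monocytes and dendritic cells. Macrophages held 167 CPM [164-170] in isotype control, 181 CPM in the library titled anti-human CTLA-4, 156 CPM in the library titled anti-mouse FcgRII and 241 CPM [238-244] in the combination. The combination was 1.44 times isotype control [1.42-1.47], 1.34 times the first titled library [1.31-1.36] and 1.55 times the second [1.52-1.58], whereas the titled libraries were 1.08 and 0.934 times isotype control. In monocytes the levels were 403, 415, 402 and 562 CPM in the same order, with the combination at 1.40 times isotype control [1.34-1.46]. In dendritic cells they were 162, 197, 188 and 286 CPM, a ratio of 1.77 [1.54-2.02].

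These differences were seen in most parts of each class. The Plac8 and Chil3 cluster of monocytes went from 486 to 647 CPM between isotype control and the combination, and the Ace and Adgre4 cluster from 338 to 424 CPM. The Cd209a cluster of dendritic cells went from 180 to 306 CPM, and the smaller Ccl22 and Ccr7 cluster from 53.2 to 223 CPM. Brought to 1 depth, 52.0% of isotype control macrophages and 61.3% of combination macrophages had a Socs3 UMI, with 54.5% and 49.4% in the titled libraries. Fibroblasts or tumor cells, which can express Socs3, gave 25.4% at that depth.

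Among macrophage clusters Socs3 was highest in the combination in 9 of 12, and above isotype control in 10, of which 9 lay beyond the counting interval. The largest ratio was 1.82 in cluster 10, led by the S-phase genes Ung and Uhrf1. In cluster 14, led by Mmp12 and holding Nos2 among its leading genes, the library titled anti-human CTLA-4 was highest, at 312 CPM against 218 CPM in isotype control, 180 CPM in the library titled anti-mouse FcgRII and 239 CPM in the combination. The small clusters 21 and 22, of 207 and 144 cells, went the other way, from 161 to 104 CPM and from 216 to 103 CPM, a ratio of 0.476 in cluster 22, led by Retnla and Saa3. With the clusters held at fixed shares the ratio was 1.43, close to the 1.44 found.

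**Figure D4:**
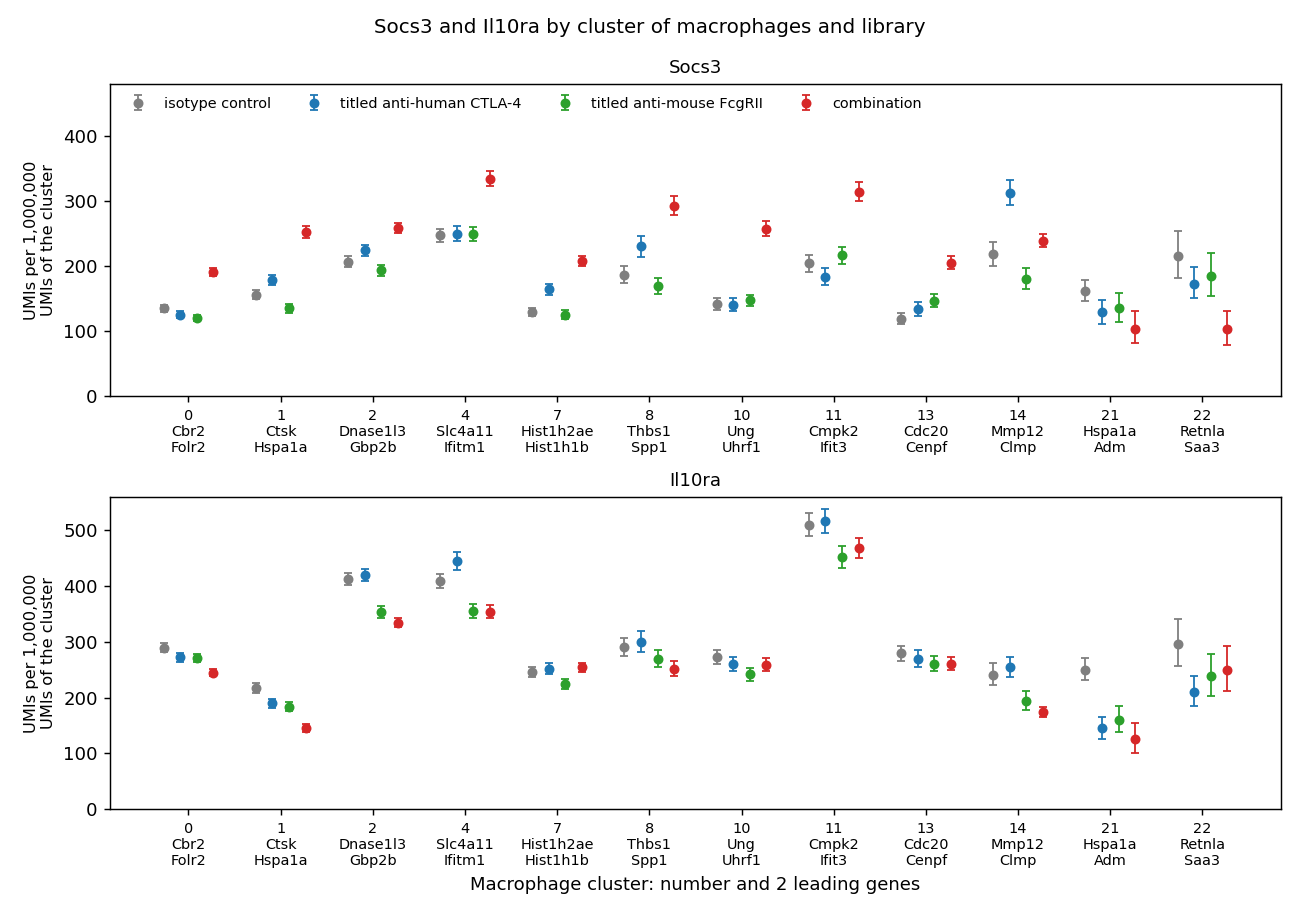
Socs3 (top) and Il10ra (bottom) UMIs per 1,000,000 UMIs of the cluster (y axes, from 0) in 12 macrophage clusters, named by number and 2 leading genes, in 4 libraries with 95% Poisson intervals. The combination is the highest library for Socs3 in 9 clusters and the lowest for Il10ra in 8.

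Neutrophils held the most Socs3 of the classes, at 912 CPM in isotype control, 730 and 702 in the titled libraries and 932 CPM in the combination, and there were 105, 89, 44 and 457 of them. Neutrophil marker RNA was highest in the combination in macrophages and monocytes, as Socs3 was. Macrophages of the library titled anti-mouse FcgRII had more marker RNA and less Socs3 than those of isotype control. For NK cells Socs3 was lowest in the combination, and the markers were lowest in the titled libraries. The part of neutrophil RNA in the Socs3 levels was not tested in any class or library. The 8 neutrophil markers summed to 380 CPM in isotype control macrophages, 443 and 447 in the titled libraries and 970 CPM in the combination, and in monocytes to 652 CPM in isotype control against 1444 CPM in the combination. In cells without an S100a8 or S100a9 UMI, the combination held Socs3 at 1.37 times the isotype level [1.34-1.41] in macrophages, 1.34 times in monocytes and 1.82 times in dendritic cells.

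Lymphocytes differed among themselves. Other T cells had 140 CPM of Socs3 in isotype control, 68.6 and 93.3 CPM in the titled libraries and 184 CPM in the combination, with the combination at 1.32 times isotype control [1.16-1.5]. Their neutrophil markers summed to 293 and 689 CPM in isotype control and the combination, and in cells without an S100a8 or S100a9 UMI the ratio was 0.980 [0.850-1.13], so the combination could then not be told from isotype control. Macrophage markers in other T cells summed to 3214 CPM in isotype control, 1260 and 946 in the titled libraries and 3722 CPM in the combination. The part of this RNA in their Socs3 levels was not tested. In NK cells Socs3 was lower in the combination, at 49.2 CPM against 76.3 CPM in isotype control and 62.5 and 74.0 CPM in the titled libraries, a ratio of 0.646 [0.510-0.818]. This class joins a cluster led by Gzma and Klra8 and another led by Gzmc and Gzmd. The part of their mix in this ratio was not tested. Marker RNA of other classes in these NK cells was also lower in the combination, and lower still in the titled libraries. The neutrophil markers summed to 290 CPM in isotype control, 8.60 and 11.3 in the titled libraries and 80.5 CPM in the combination, and the macrophage markers to 1262, 228, 393 and 688 CPM in the same order. In NK cells without an S100a8 or S100a9 UMI the Socs3 ratio was 0.662 [0.519-0.846], and with the cells of macrophage RNA put back 0.688 [0.559-0.847], while the part of the macrophage RNA that remained was not tested. Tregs held 95.3, 219, 175 and 56.5 CPM, the last from 7 UMIs in 9 cells, so that the combination could not be told from isotype control at 0.592 [0.229-1.29]. With the cells of macrophage RNA put back the Treg levels of Socs3 were 180, 150, 157 and 165 CPM in the same order, a ratio of 0.920.

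To place the 4 genes, every gene with at least 20 UMIs over the 2 libraries compared was read against a fold of 1.5, a size and not a test. In macrophages 0 of the 4 genes lay past it in the combination against isotype control, where 6.84% of 12625 genes were higher and 8.80% lower. In monocytes Il10 was higher, 1 of 4, beside 8.56% of 10350 genes higher and 6.58% lower, and rested on the 1 cell named above. In dendritic cells Socs3 was higher, 1 of the 3 that could be compared, beside 7.45% of 9627 genes higher and 13.5% lower. Il10 was lower in other T cells, 1 of 4, beside 8.73% of 10495 genes higher and 8.48% lower. Socs3 was lower in NK cells, 1 of 3, beside 6.41% of 9765 genes higher and 5.75% lower. The median gene had a ratio of 0.952, 0.921, 0.934 and 0.984 in monocytes, dendritic cells, other T cells and NK cells. In macrophages of the titled libraries 0 of the 4 genes lay past the fold, where 2.82% of genes were higher and 5.59% lower in the library titled anti-human CTLA-4, and 2.16% and 8.36% in the library titled anti-mouse FcgRII.

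The pathway was also read from 10 lists drawn up with results of these data known, so their counts and ranks are descriptions. The lists of the IL-10 family cytokines, of the family's receptors and of the SOCS family hold some of the 4 genes too. Each count stands beside the share over all genes given above for its class and comparison. In macrophages of the combination that share was 6.84% higher and 8.80% lower. In macrophages, combination against isotype control, the list with the most genes past the fold was that of inflammatory genes which IL-10 is known to restrain, with 7 of 11 higher, 0 lower and a median ratio of 1.99. Whether IL-10 had any part in the levels of these genes was not tested. Il12a, a subunit of IL-12, was at 0.159 CPM in isotype control, 0.342 and 0.116 in the titled libraries and 2.57 CPM in the combination, a ratio of 16.2 [9.64-29.3]. Nos2, the inducible nitric oxide synthase, was at 105 CPM in isotype control, 253 and 74.5 in the titled libraries and 923 CPM in the combination, a ratio of 8.81 [8.63-9.0]. Each of these was highest in the combination and lowest in the library titled anti-mouse FcgRII. Il6 was at 0.318, 1.15, 0.254 and 1.91 CPM and Il1a, which encodes the alarmin IL-1α, at 24.3, 39.1, 25.1 and 88.1 CPM in the same order of libraries. Il12b, the other IL-12 subunit, went down from 1.31 to 0.962 CPM, a ratio of 0.737 [0.564-0.962]. In the titled libraries this list had 4 of 11 higher and 0 lower for anti-human CTLA-4, and 0 higher and 1 lower for anti-mouse FcgRII. It had 7 of 9 higher and 0 lower in monocytes, 6 of 9 higher and 1 lower in dendritic cells, 6 of 8 higher and 0 lower in other T cells and 3 of 7 higher and 1 lower in NK cells. Neutrophils also express several of these genes, and the part of the neutrophil marker RNA given above in these counts was not tested. Macrophage marker RNA also remained in the lymphocytes. For other T cells it summed to 3214 CPM (isotype control) and 3722 CPM (combination), and for NK cells to 1262 and 688 CPM. The part of macrophage RNA in the counts outside macrophages was not tested.

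Genes that IL-10 is known to induce mostly stayed within the fold in macrophages, with 1 of 10 higher, 0 lower and a median ratio of 1.13. The gene past the fold was Il1rn, the antagonist of the IL-1 receptor, at 273 CPM in isotype control, 360 and 301 in the titled libraries and 732 CPM in the combination, and the lowest was the repressor gene Etv3 at a ratio of 0.920. In monocytes the same list had 3 higher and 1 lower, and in dendritic cells 5 and 0, with medians of 1.26 and 1.46. It had 2 and 0 in other T cells and 3 and 4 in NK cells, with medians of 1.24 and 1.12. The part of macrophage RNA in these counts was not tested either. Among 8 members of the SOCS family in macrophages 2 were higher and 1 lower, with a median of 1.31. Socs1, an inhibitor of interferon signaling, went from 88.8 to 294 CPM, a ratio of 3.31 [3.23-3.39], and Cish, a feedback gene of STAT5, from 15.7 to 27.7 CPM. Socs6 was lower, at 133 CPM in isotype control, 123 and 128 in the titled libraries and 77.2 CPM in the combination.

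Of the JAK and STAT genes in macrophages 2 are given here, Stat3, which carries the IL-10 signal, at a ratio of 1.06 and Stat4 at 0.839. Of the other cytokines and receptors known to induce Socs3, 4 of 12 were higher and 2 lower, with a median of 1.07. Il6 (ratio 5.99 [4.07-9.09]), Il11 (4.41 [2.04-10.9]) and Csf3, the gene of G-CSF (2.27 [1.40-3.80]), were higher but each under 2 CPM in every library. Lifr, a receptor of LIF, was lower, from 63.0 to 26.8 CPM.

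The remaining lists held at most 2 genes past the fold in the macrophages of the combination. Receptors of the IL-10 family had 0 of 5 higher and 1 lower, Ifnlr1, the specific chain of the lambda interferon receptor, at a ratio of 0.473, and the highest was Il20rb at 1.34. Of the family's cytokines only Il10 itself had enough UMIs. Regulators of Il10 transcription had 0 of 9 higher and 1 lower, the aryl hydrocarbon receptor gene Ahr, from 37.8 to 23.3 CPM, a level that the library titled anti-mouse FcgRII also had, and the highest was Nfil3 at 1.46. Other Treg effector genes had 0 of 10 higher and 2 lower, Foxp3 from 8.42 to 0.659 CPM and Il2ra from 15.6 to 5.73 CPM, with Tigit the highest at a ratio of 1.26. In each titled library 6 of these 10 genes were lower against isotype control, with medians of 0.537 and 0.359, and of the regulators of Il10 1 of 9 and 3 of 9 were lower. T cell marker RNA in macrophages was also lower in both titled libraries, at 59.4 CPM (anti-human CTLA-4) and 26.8 CPM (anti-mouse FcgRII). Its sum was 126 CPM for isotype control and 133 CPM for the combination. The part of T cell RNA in the counts of Treg effector genes was not tested, and Foxp3 marks Tregs and not macrophages. Neighbours of Il10 on chromosome 1 had 0 of 3 higher and 1 lower, Fcmr, an IgM receptor gene of lymphocytes, from 2.05 to 0.232 CPM, and the kinase gene Mapkapk2 was at 0.977.

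**Figure D5:**
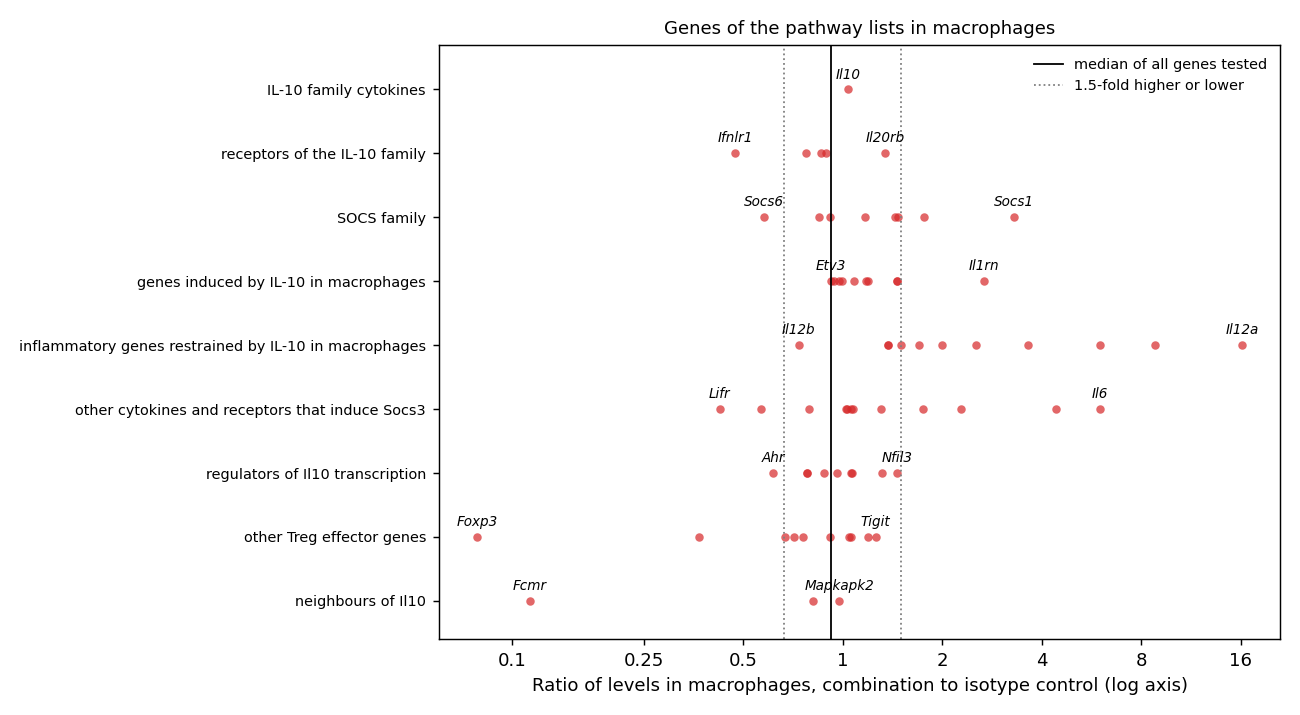
Ratio of levels in macrophages, combination to isotype control (x axis, log scale), for each gene of 9 of the pathway lists that had at least 20 UMIs; the solid line is the median of all genes, 0.924, and the dotted lines mark 1.5-fold. The highest and lowest gene of each list is named, and the inflammatory genes restrained by IL-10 lie mostly to the right, up to Il12a at 16.2.

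Likeness of pattern was measured as Pearson's r of log2(CPM + 1) over 28 points, the 7 classes in 4 libraries, among 9676 genes. The points share libraries and cells of neighbouring clusters, so r is a description. Il10 was most like Ankrd6 (0.866), Pcsk1, Tnfrsf13b, Samd11 and Trbv2 (0.832). Several of the Il10 points held no UMI or rested mostly on a single cell, as given above, so every r with Il10 is uncertain. Il10ra was most like Stxbp6 (0.908), Cd300lg, Sipa1l3, Ehbp1l1 and Hpgd (0.867). For Il10rb the nearest were Tlr4 (0.872), the receptor for bacterial lipopolysaccharide, Por, Fnip1, Rab20 and Hs1bp3 (0.851). Socs3 had the closest matches, Cdc42ep2 (0.949), Msrb1, Dusp16, Trem3 and Rnd1 (0.930). Among the 4 genes themselves r was highest between Il10rb and Socs3, at 0.523, and was -0.20 between the receptor chains and -0.29 between Il10 and Il10ra.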

How the data were processed

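Fixed cells were hybridized with probes by the Chromium Flex protocol. The authors deposited raw counts of UMIs for every gene in every cell, made with Cell Ranger (version 7.2.0 in the file headers, 7.0.0 in the submitters' processing notes). These were not normalized and cover barcodes called as cells before any removal of doublets. The submitters' notes give build mm10.

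Cells with at least 500 genes and at most 10% mitochondrial UMIs were kept, and the 5% with the highest Scrublet scores in each library were left out, where the authors used DoubletFinder. SCTransform, anchor integration (3000 features without the genes of the lists and the members, 30 components) and clustering at resolution 0.8 followed the methods, in Seurat 5.3.0 with sctransform 0.4.2 and R 4.3.3, and the rest ran in Python 3.11.15 with Scanpy 1.11.5, NumPy 2.4.6, pandas 2.3.3 and SciPy 1.17.1. Total UMIs per library ranged from 129151823 to 196362818. Counts were summed per class and library. Shares are expected values after each cell is brought to the 10th percentile of UMIs of its class, with shallower cells left out.

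The members and lists were chosen with earlier results of these data known. Setting apart cells with 1% or more macrophage marker UMIs was planned as an alternative and became the main reading after the clusters were seen. List genes named are those past 1.5-fold in macrophages, at most 4 per list, and the highest and lowest of each list. Genes named as alike had at least 20 CPM in a class and library. The step that calls genes past the fold was tested on simulated Poisson counts of summed classes. Those counts did not hold the uneven spread of UMIs over single cells. Alternatives were no integration, resolutions of 0.4 and 1.2, stricter cell filters, other Treg definitions, depths, scalings, folds and minimums of UMIs, and leaving out high cells or cells with RNA of other classes. Probe sequences were not used here. The result of 1 gene that the naming rule selects is not reported here.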

Additional observations from a re-analysis of the deposited data

Results flagged for a closer look

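For each of the 4 genes the combination lay above isotype control in one class and below it in another, beyond the counting interval of each. None of these differences between classes was tested, because there is 1 library for each treatment. As ratios to isotype control, Il10 was at 3.30 in monocytes and 0.0335 in other T cells, and each of these rests on single cells. Il10ra was at 1.74 in neutrophils and 0.861 in macrophages, and Il10rb at 1.48 in neutrophils and 0.848 in NK cells. Socs3 was at 1.77 in dendritic cells and 0.646 in NK cells, the latter from 159 and 136 UMIs. Marker RNA of neutrophils and macrophages in the NK cells was also lower in the combination, at 80.5 against 290 CPM and at 688 against 1262 CPM. Without cells that had an S100a8 or S100a9 UMI the NK ratio of Socs3 was 0.662.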

How the results depend on the processing

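No paired analysis was possible because each treatment has 1 library. Of 518 alternative values for 135 results, 358 stayed within the interval of the value reported (counts within 1.5 times), 155 moved beyond it and 5 reversed. Of those that moved, 59 and 40 were shares of cells read at full depth or at a greater depth. A value was called reversed only where the interval of the value reported excluded 1. Other values that crossed 1, as for Il10 in macrophages below, were counted as within the interval or as moved, so more than 5 changed direction. With all cells of the lymphocyte and neutrophil clusters counted, other T cells reversed for Il10ra (0.929) and Il10rb (0.893), Il10 in them was 0.0850, and Il10 in Tregs was 54.7 CPM in isotype control against 49.6 CPM in the library titled anti-mouse FcgRII. As a mean over cells, Socs3 in other T cells reversed (0.993), Il10 was 0.193 in other T cells and 0.714 in macrophages, Il10ra in macrophages 0.829 and Socs3 in macrophages 1.41. Without the single highest cell, a reading chosen after seeing the data, Il10 was 0.154 in other T cells, 0.792 in macrophages and 0.624, reversed, in monocytes. Without the 1% of highest cells Il10 in macrophages was 0.582, without integration 1.32, and with 10% of doublet scores left out 1.35, so its direction is not settled. Without integration Il10rb in macrophages was 0.870, and without Cd3 UMIs Il10ra was 0.829. By size factors macrophages were at 0.931 for Il10ra, 0.960 for Il10rb and 1.56 for Socs3, and monocytes at 1.46 for Socs3. In cells without S100a8 or S100a9 UMIs, chosen after seeing the data, Socs3 was 0.980 in other T cells, reversed, and 1.37 in macrophages. At 2-fold, list genes past the fold in macrophages fell from 14 to 9 higher and from 8 to 5 lower. The cause of these changes was not tested. Few Tregs, 9 in the combination, limit every value in that class.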
